A study of Macaca mulatta with 2 samples.

Results

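Transcripts of 6 genes that mark amacrine cells and their transmitters were examined across the inner retina of untreated macaque tissue: SST, TAC1, GAD1, SLC6A11, SLC6A9 and CALB2. They were chosen by gene symbol, and each of the 6 was found once among the 26533 features of the reference. Values came from 2 Visium spatial transcriptomic sections, 1 from each animal. Both animals were wild-type male Macaca mulatta, NHP1 aged 5 years and NHP2 aged 6 years, and both sections came from the right eye, from a 4 mm punch through the whole posterior eyecup at a site that had not been injected. The right eye of NHP1 had received AAV2-CAG-hRPE65 under the retina elsewhere, a vector with a ubiquitous promoter. That of NHP2 had received AAV8-GRK1-mScarlet and AAV8-GRK1-hRPGRco in separate blebs, both with a photoreceptor-specific promoter. Each eye had a subtenon injection of triamcinolone at surgery, only the left eyes were given adalimumab, and tissue was harvested at 12 weeks. Animal, age and vector cannot be told apart, and with 1 section per animal no test between the animals was possible. All intervals given are exact 95% intervals, which cover counting error only.

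Amacrine cells are the inhibitory interneurons of the inner retina, and they shape the signals that pass from bipolar cells to ganglion cells. Nearly all of them release GABA or glycine, and many also carry a neuropeptide, by which types are told apart. Their cell bodies lie in the inner nuclear layer or, when displaced, among the ganglion cells. SST encodes somatostatin and TAC1 encodes substance P, both found in sparse, wide-reaching amacrine cells. GAD1 makes GABA from glutamate, SLC6A11 takes up GABA and SLC6A9 takes up glycine. CALB2 encodes calretinin, a calcium-binding protein that amacrine cells share with some ganglion cells.

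In the RefSeq annotation of Mmul_10, the build to which the reads were counted, SLC6A9 (ENSMMUG00000015158) lies on chromosome 1 from 180419370 to 180454531, SST (ENSMMUG00000000850) on chromosome 2 from 10153093 to 10154595, SLC6A11 (ENSMMUG00000005916) on chromosome 2 from 142228861 to 142351426 and GAD1 (ENSMMUG00000015198) on chromosome 12 from 57960027 to 58006388, all on the plus strand. TAC1 (ENSMMUG00000014823) lies on chromosome 3 from 108394177 to 108402680 and CALB2 (ENSMMUG00000008403) on chromosome 20 from 60113742 to 60146221, both on the minus strand. The 2 peptide genes carry the main spatial result, and the stretch of each that encodes the released peptide is shown 5′ to 3′ on the coding strand, with the codons of the peptide in capitals. The somatostatin stretch is the last part of the coding sequence in exon 2 of SST (chr2:10154354-10154428, plus strand), where 14 codons follow the last pair of basic residues. The substance P stretch lies in exon 3 of TAC1 (chr3:108400781-108400859, minus strand), where 11 codons precede the glycine that is used for amidation.
SST: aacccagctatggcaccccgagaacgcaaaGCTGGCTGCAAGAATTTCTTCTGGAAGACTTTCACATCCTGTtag
TAC1: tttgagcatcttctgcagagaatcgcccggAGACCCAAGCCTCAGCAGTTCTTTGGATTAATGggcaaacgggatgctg

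A Visium spot of 55 μm takes up RNA from all cells above it, so a spot is a small region and not a cell. Tissue spots numbered 534 in NHP1 and 470 in NHP2. Regions were found by clustering without the 6 genes or any other gene of the amacrine lists. Those in which most of the raised markers were bipolar, ganglion, horizontal or Müller glia markers were taken as inner retina. This gave 134 spots with 805282 unique molecular identifiers (UMIs) in NHP1 and 34 spots with 427994 UMIs in NHP2. Spots of the inner retina were deep, with a median of 4955.5 UMIs (68 to 30011) in NHP1 and 8098.5 UMIs (1065 to 50457) in NHP2, against 931.5 and 322.5 UMIs in the other tissue spots. In NHP1 they came from 3 regions: 97 spots led by ASTN1, SNX10 and NEFL, 23 spots led by PCMTD2, RHOT2 and COX17, and 14 spots led by PRDM8, RASD1 and LNP1. The region led by PCMTD2 rested on only 3 inner retinal markers, the one led by ASTN1 on 20. In NHP2 there was a single region, led by ACTC1, SYNPR and NEFH, with 19 markers. Inner retinal spots also held photoreceptor markers, at a summed 84.0 UMIs per 10000 in NHP1 and 68.5 in NHP2. In the photoreceptor region of each section these were at 283. Some defining markers had 0 UMIs in the inner retinal spots of both sections, among them GRM6, ISL1 and SCGN of the bipolar list and POU4F1 and POU4F2 of the ganglion list. Amacrine cells have no list among those markers. Of the 10 transcription factors listed for them, 3 had at least 20 UMIs in the tissue of each section. PAX6, a factor of amacrine and other inner retinal cells, was at 5.23 UMIs per 10000 in NHP1 and 5.35 in NHP2. TFAP2A and TFAP2B, factors of amacrine cells, were at 1.17 and 1.04 in NHP1 and 1.94 and 1.36 in NHP2. TCF4 lay mainly outside the inner retina, which held 3 of its 19 tissue UMIs in NHP1 and 0 of 16 in NHP2. MEIS2, EBF1, PROX1 and TFAP2C had no more than 12 tissue UMIs in either section, and NEUROD6 had 0. PTF1A, which acts in the developing retina, had 0 UMIs.

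Transcripts of the 6 genes lay mainly in the inner retina, which held 54.2% of all tissue UMIs in NHP1 and 53.1% in NHP2. In NHP1 it held from 68.8% (SLC6A9) to 97.6% (SST) of the tissue UMIs of each gene. The range in NHP2 was from 69.6% (SLC6A9) to 97.4% (GAD1). In NHP1, 5 of the 6 were at least 2-fold higher in inner retinal than in other tissue spots, where 8.87% of the 7791 genes with at least 20 UMIs were. In NHP2, 5 genes had at least 20 UMIs and all 5 were at least 2-fold higher, against 13.7% of 6403 genes, while SLC6A11 with 10 UMIs fell under that minimum. A bar of 4-fold was reached by 5 genes in NHP1 and 4 in NHP2, where 1.07% and 4.54% of all genes did. The median fold of the genes measured was 5.78 in NHP1 and 11.2 in NHP2, against 1.03 and 1.06 over all genes. In NHP1, SST, TAC1, GAD1 and SLC6A11 passed the minimum of 20 only through the inner retina, with 2, 11, 8 and 3 UMIs outside it. So did SST, TAC1 and GAD1 in NHP2, with 10, 4 and 1 UMIs outside. The counts and medians are therefore a description. A spot mixes many cells, so that a smaller number of cells and less RNA in each cell cannot be told apart. Levels of different genes are not set against each other, because the counts were not scaled to transcript length.

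**Figure D1:**
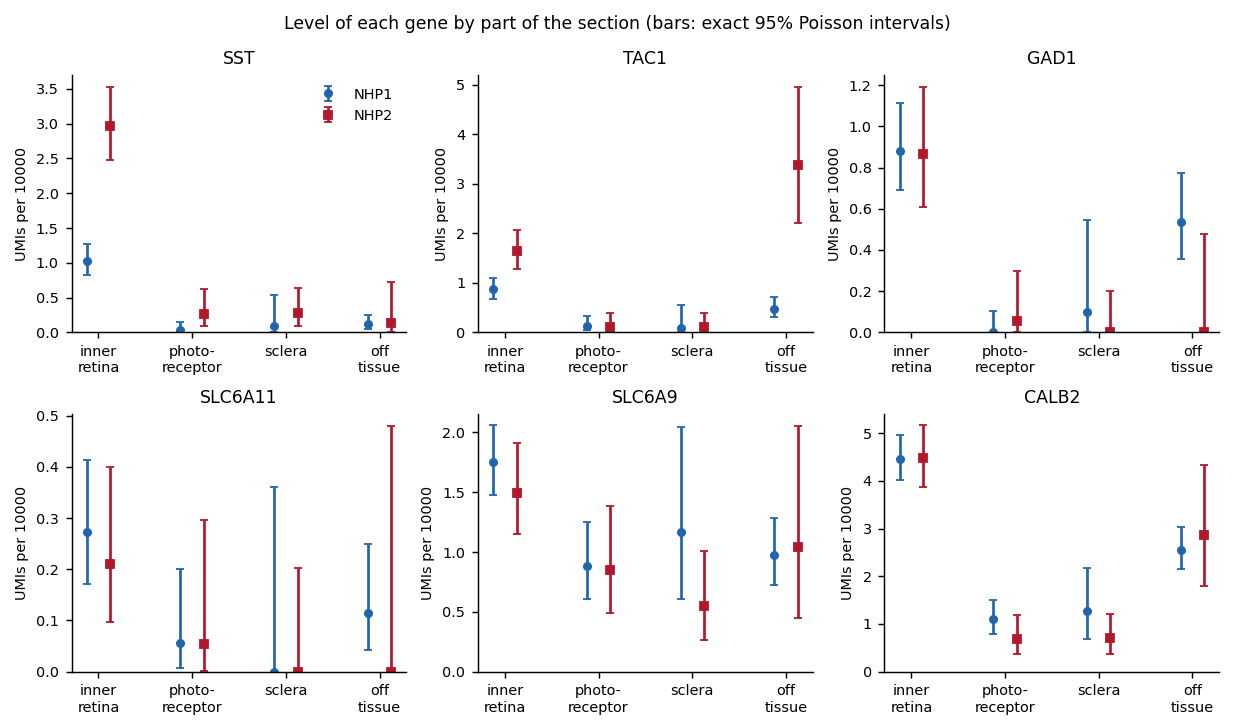
Level of each of the 6 genes in UMIs per 10000 (y axis) in the inner retinal, photoreceptor and scleral regions and in spots off tissue (x axis), with points for NHP1 (circles) and NHP2 (squares) and bars for exact 95% Poisson intervals. Unnamed regions are left out. SST, TAC1, GAD1 and CALB2 were higher in the inner retina than in the photoreceptor region of both sections, and TAC1 of NHP2 was also high off tissue.

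SST was confined almost to 1 spot in each section. In NHP1, 83 of its 85 tissue UMIs lay in the inner retina, and 79 of these 83 (95.2%) in a single spot, with 3 UMIs in the next fullest and a median of 0. In NHP2, 127 of 137 tissue UMIs lay in the inner retina, of which 112 (88.2%) were in 1 spot and 11 in a spot that adjoined it. The spot of NHP1 held 12210 UMIs, or 1.52% of those of the inner retina, and that of NHP2 held 23554, or 5.50%. SST thus reached 64.7 UMIs per 10000 within the spot of NHP1 and 47.6 within that of NHP2. A UMI of SST was present in only 3 of 134 inner retinal spots in NHP1 and in 6 of 34 in NHP2.

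The share of UMIs in the fullest spot was computed for every gene with at least 50 inner retinal UMIs, 3286 in NHP1 and 1762 in NHP2. Of these, 2 genes in each section had at least 50% of their UMIs in 1 spot, or 0.0609% and 0.114%. These were SST and the haemoglobin gene HBE1 in NHP1, and SST and TAC1 in NHP2. The median share was 5.45% in NHP1 and 14.04% in NHP2, where fewer spots were available. This measure was chosen after the counts per spot had been seen. Without their fullest spots SST would have had 4 and 15 UMIs and TAC1 43 and 20, under the minimum of 50, and genes with fewer UMIs were not compared. The shares are therefore a description and rank no gene.

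**Figure D2:**
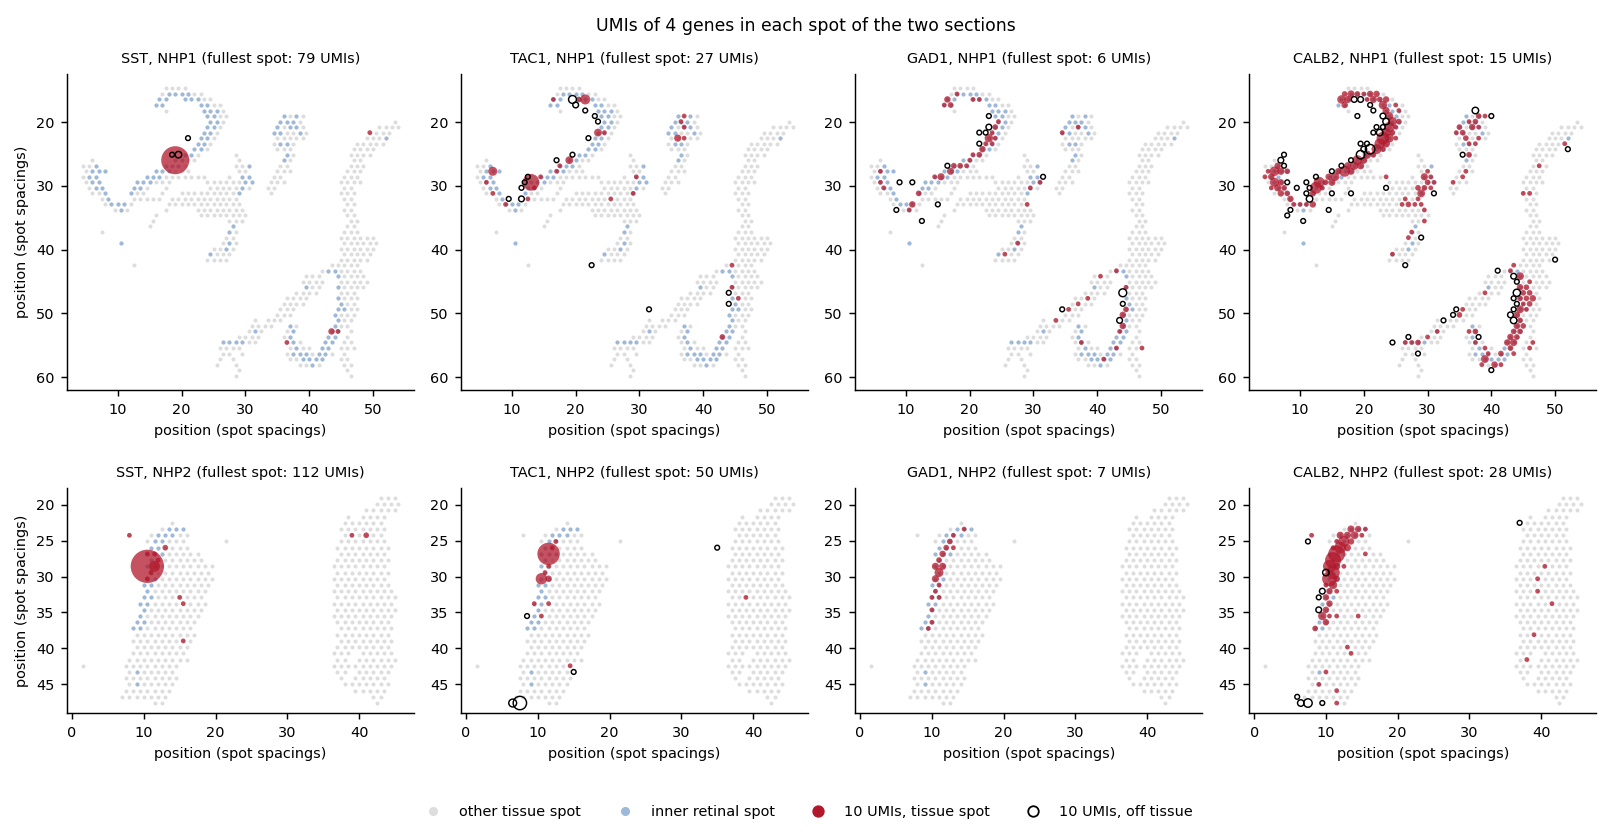
Spot maps of SST, TAC1, GAD1 and CALB2 in NHP1 (top) and NHP2 (bottom), with positions on both axes in spot spacings. Grey dots are tissue spots, blue dots inner retinal spots, and the area of a red disc (tissue) or open circle (off tissue) grows with the UMIs of the gene in that spot. SST formed 1 large disc of 79 UMIs in NHP1 and 1 of 112 in NHP2, whereas GAD1 and CALB2 followed the inner retinal band.

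Surrounding spots carried little SST. Of the 6 neighbours of the NHP1 spot, 2 had a UMI, 4 UMIs in all, although their depth ran from 3060 to 16227 UMIs. Those of the NHP2 spot held 12 UMIs, 11 of them in the adjoining spot mentioned above. In both sections 3 of the 6 neighbours lay off tissue, and the nearest photoreceptor spot was 1.73 spacings away, against a median of 1 spacing for inner retinal spots. Ganglion markers made up 88.9% of the ganglion and bipolar marker UMIs in the SST spot of NHP1 and 86.0% in that of NHP2, where the medians over inner retinal spots were 64.1% and 78.4%. Of the other transmitter genes, GAD1 had 0 UMIs in the NHP1 spot and 4 in the NHP2 spot, SLC6A9 had 3 and 1, TAC1 had 5 and 0, and NPY, a peptide that can occur with somatostatin, had 0 and 6. Only 1 other inner retinal spot of NHP2 had more GAD1 UMIs than its SST spot, and only 3 of NHP1 had more TAC1 UMIs than its SST spot.

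Without its fullest spot, SST fell from 1.03 UMIs per 10000 (0.821 to 1.28) to 0.0504 (0.0137 to 0.129) in NHP1 and from 2.97 (2.47 to 3.53) to 0.371 (0.208 to 0.612) in NHP2. Its fold over other tissue spots was 35.0 (9.39 to 294) in NHP1 and 11.2 (5.90 to 23.9) in NHP2. With the fullest spot left out the folds were 1.71 and 1.40, from 4 and 15 UMIs. The intervals treat UMIs as independent, which molecules gathered in 1 spot are not, so they understate the error of SST and of TAC1.

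TAC1 was less concentrated than SST. In NHP1 its fullest spot held 27 of 70 inner retinal UMIs (38.6%), the next held 9, and 20 of 134 spots had at least 1. In NHP2 the fullest spot held 50 of 70 UMIs (71.4%), the next 12, and 8 of 34 spots had at least 1. The NHP2 spot was also the deepest of the inner retina, with 50457 UMIs, or 11.8% of the total, whereas that of NHP1 had 6776 UMIs, or 0.841%. Scaled to depth, TAC1 was at 39.8 UMIs per 10000 in the NHP1 spot and at 9.91 in the NHP2 spot.

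**Figure D3:**
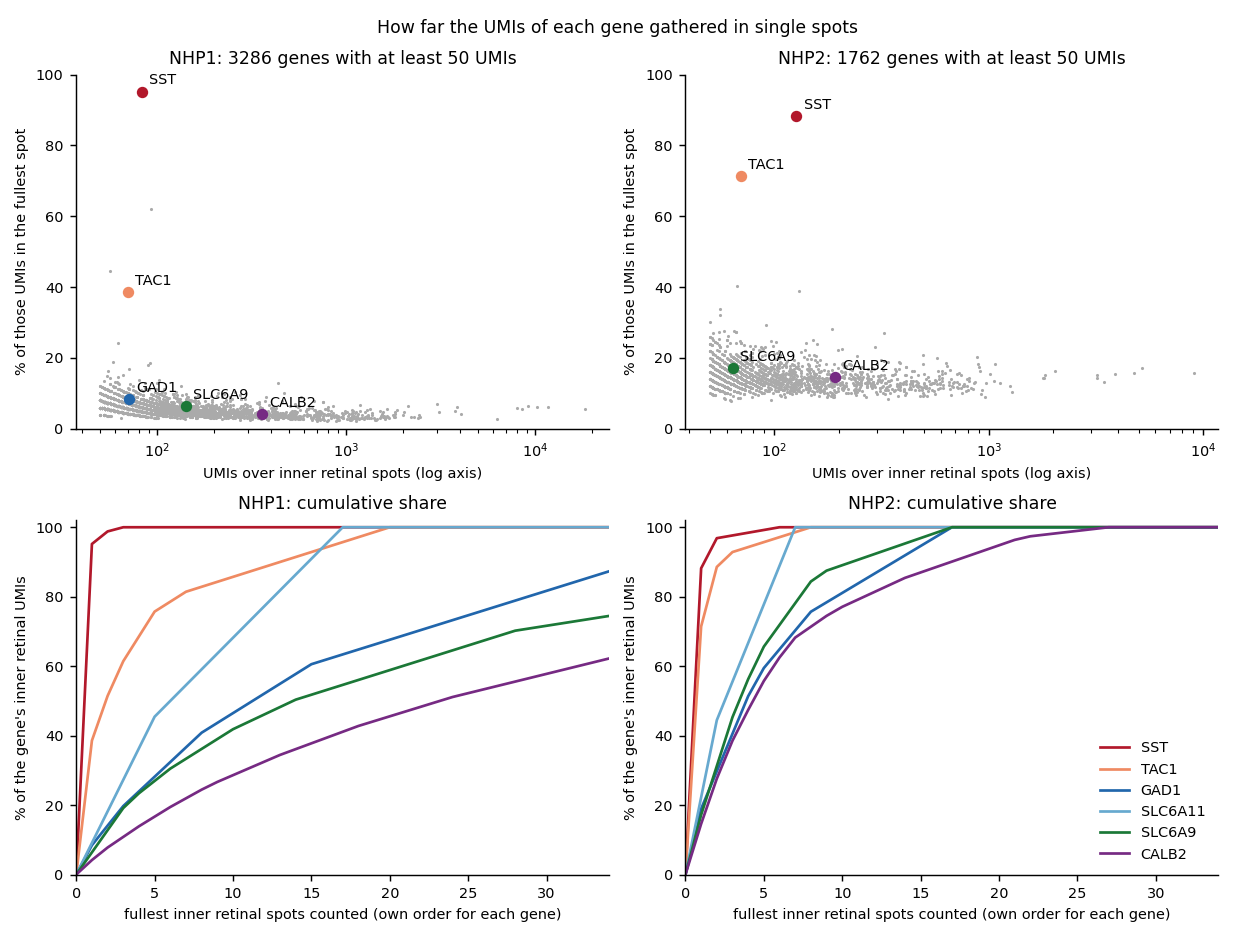
Top, the percentage of a gene's inner retinal UMIs found in its fullest spot (y axis) against those UMIs on a log axis (x axis) for every gene with at least 50, with the genes studied in colour. Bottom, the cumulative percentage of each gene's UMIs (y axis) over its own spots from the fullest down (x axis). SST stood at 95.2% and 88.2% and TAC1 at 38.6% and 71.4%, apart from the band in which SLC6A9 and CALB2 lay.

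The fullest TAC1 spots were not the fullest SST spots, although the NHP1 SST spot held 5 TAC1 UMIs. The NHP1 TAC1 spot had 0 UMIs of SST and of GAD1, 2 of SLC6A9 and 11 of CALB2. In NHP2 the TAC1 spot had 1 UMI of SST, 3 of GAD1, 7 of SLC6A9, 28 of CALB2 and 29 of NPY, and NPY had 43 UMIs in all inner retinal spots of that section. Ganglion markers again prevailed, with 93.4% of ganglion and bipolar marker UMIs in the NHP1 spot and 86.9% in the NHP2 spot. None of the 6 neighbours held more than 1 UMI of TAC1 in either section.

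Over the inner retina TAC1 was at 0.869 UMIs per 10000 (0.678 to 1.098) in NHP1 and 1.64 (1.27 to 2.07) in NHP2, which was 5.37-fold (2.82 to 11.2) and 15.4-fold (5.77 to 58.3) above other tissue spots. Without the fullest spot it was 0.539 (0.390 to 0.725) and 0.530 (0.324 to 0.818), and the fold was 3.33 in NHP1 and 5.00 in NHP2. Over spots off tissue the fold in NHP1 was 1.82. Spots off tissue held 26 TAC1 UMIs in NHP2, or 3.38 UMIs per 10000 (2.21 to 4.95), more than in the inner retina itself. Of these, 17 lay in a single spot with 6175 UMIs beside the tissue and 5 in its neighbour, at a median depth of 4 UMIs over all spots off tissue. The first of them also had 42 UMIs of ganglion markers, and neither entered the inner retinal values.

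GAD1, the GABA-synthesising enzyme, was spread along the inner retina. It had 71 UMIs in 43 of 134 spots in NHP1 and 37 UMIs in 17 of 34 spots in NHP2, with no more than 6 and 7 UMIs in any spot. The level was 0.882 UMIs per 10000 (0.689 to 1.11) in NHP1 and 0.864 (0.609 to 1.19) in NHP2. Fold over other tissue spots was 7.49 (3.60 to 18.0) and 32.7 (5.51 to 1324), the latter from a single UMI outside. In the photoreceptor region GAD1 had 0 of 361693 UMIs in NHP1, which allows up to 0.102 per 10000, and 1 of 187516 in NHP2. The GABA transporter SLC6A11 had few UMIs, 22 in NHP1 and 9 in NHP2, in 17 and 7 spots with no more than 2 in any. It was at 0.273 UMIs per 10000 (0.171 to 0.414) and 0.210 (0.0962 to 0.399), and 6.19-fold (1.86 to 32.3) and 7.94-fold (1.101 to 348) above other tissue spots, from 3 UMIs and 1 UMI outside. With so few UMIs outside, these folds depended on where the inner retina was drawn. At a Leiden resolution of 0.5 that of GAD1 was 24.9 in NHP1 and 3.92 in NHP2, that of SLC6A11 in NHP2 was 1.03, and without the region of NHP1 that rests on 3 markers that of GAD1 was 4.93. Over spots off tissue, where GAD1 was at 0.535 (0.356 to 0.774) in NHP1, its fold was 1.65.

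The other genes of GABA handling were also read. GAD2, the second GABA-synthesising enzyme, was at 1.32 UMIs per 10000 in NHP1 and 1.40 in NHP2, with folds of 3.58 and 13.2. SLC32A1, which loads GABA and glycine into synaptic vesicles, had folds of 2.95 and 15.9. ABAT, which breaks GABA down, had folds of 2.34 and 4.96. With GAD1 and SLC6A11 counted, all 5 genes of this list with at least 20 UMIs in NHP1 and all 4 in NHP2 were at least 2-fold higher in the inner retina, with medians of 3.58 and 14.6, where 8.87% and 13.7% of all genes were. In NHP2 GAD1, GAD2, SLC32A1 and ABAT passed that minimum only through the inner retina, with 1, 4, 3 and 8 UMIs outside it. In NHP1 GAD1 and SLC6A11 did so, with 8 and 3 UMIs outside it. SLC12A5, a chloride exporter of mature neurons, had 3 UMIs in the tissue of NHP1 and 0 in that of NHP2, and SLC6A13 has no feature in the reference.

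SLC6A9, the glycine transporter, was higher in the inner retina by about the bar of 2-fold. Inner retinal spots had 141 UMIs in NHP1 and 64 in NHP2, at 1.75 UMIs per 10000 (1.47 to 2.06) and 1.495 (1.15 to 1.91). Its fold over other tissue spots was 1.86 (1.37 to 2.54) in NHP1 and 2.02 (1.28 to 3.27) in NHP2. The photoreceptor region had 0.885 UMIs per 10000 (0.605 to 1.25) in NHP1 and 0.853 (0.488 to 1.39) in NHP2, and the scleral regions 1.17 (0.605 to 2.05) and 0.547 (0.262 to 1.01). Spots off tissue were at 0.975 (0.726 to 1.28) and 1.04 (0.449 to 2.05), so the level outside the inner retina overlapped that off tissue. SLC6A5, the neuronal glycine transporter, had 0 UMIs in both sections.

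CALB2, the calretinin gene, had the most UMIs of the 6 in both sections. It had 360 UMIs in 103 of 134 inner retinal spots of NHP1, with a median of 2 and a maximum of 15, and 192 UMIs in 27 of 34 spots of NHP2, with a median of 3 and a maximum of 28. Levels were 4.47 UMIs per 10000 (4.02 to 4.96) and 4.49 (3.87 to 5.17), and folds over other tissue spots were 4.05 (3.15 to 5.27) and 6.52 (4.31 to 10.2). Within NHP1 it was higher in the region led by ASTN1, at 5.16 (4.60 to 5.77), than in that led by PRDM8, at 2.50 (1.79 to 3.40), or that led by PCMTD2, at 2.70 (1.47 to 4.52). Spots off tissue also carried CALB2, at 2.56 UMIs per 10000 (2.15 to 3.03) in NHP1 and 2.86 (1.79 to 4.33) in NHP2, above the other tissue spots at 1.104 and 0.688, so that the fold over spots off tissue was 1.75 and 1.57. Of the other calcium buffers, PVALB, the parvalbumin gene, had folds of 2.51 and 9.44, whereas CALB1, the calbindin gene, had 1.24 (1.02 to 1.52) and 1.03 (0.770 to 1.38).

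To see where genes lay within the inner retina, its spots were split by the share of ganglion markers among ganglion and bipolar marker UMIs. The cut was the median, 64.1% in NHP1 and 78.4% in NHP2. This gave a ganglion-rich and a bipolar-rich set of 67 spots each in NHP1 and 17 each in NHP2. The names are relative within a section, since spots below the cut could still hold mostly ganglion markers, and the cut differed between sections. CALB2 was higher in the ganglion-rich set, at 5.39 against 3.50 UMIs per 10000 in NHP1, a ratio of 1.54 (1.24 to 1.92), and at 6.17 against 2.88 in NHP2, a ratio of 2.14 (1.57 to 2.94). Between the spots at either end of the ganglion share (42 and 49 in NHP1, 11 and 12 in NHP2) the CALB2 ratios were 2.01 and 3.72. How many of all genes were higher in the ganglion-rich set was not counted. PVALB was higher there too, with ratios of 1.35 (1.19 to 1.53) and 1.89 (1.60 to 2.23). CARTPT gave 1.52 (1.25 to 1.85) and 1.06 (0.888 to 1.27), and PAX6 1.28 (1.05 to 1.56) and 1.05 (0.807 to 1.38). CALB1 gave 0.910 (0.705 to 1.17) and 0.725 (0.480 to 1.09). TAC1 was also higher in the ganglion-rich set, with 64 against 6 UMIs in each section, and ratios of 10.1 (4.39 to 28.5) and 11.2 (4.85 to 31.5). Without the fullest spot the ratios were 5.93 (2.48 to 17.2) and 3.22 (1.16 to 10.2). Between the ends of the share the TAC1 ratios were 19.9 and 7.32. Without the fullest spot these were 10.6 (3.27 to 54.1) in NHP1 and 1.05 (0.0213 to 10.6) in NHP2. All 83 SST UMIs of NHP1 were in the ganglion-rich set, at least 26.2-fold higher against the floor of 3 UMIs, with a lower limit of 20.8 by the exact interval. They lay in 3 spots, and without the fullest the sets held 4 and 0 UMIs, with a lower limit of 0.644. For NHP2 the sets held 115 and 12 SST UMIs, and the order turned without the fullest spot, to a ratio of 0.295 (0.0533 to 1.09).

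GAD1, SLC6A9 and SLC6A11 showed no difference between the sets beyond counting error. The ratio of GAD1 was 0.822 (0.499 to 1.35) in NHP1 and 0.889 (0.437 to 1.79) in NHP2, that of SLC6A9 1.05 (0.741 to 1.48) and 1.11 (0.661 to 1.88), and that of SLC6A11 1.37 (0.540 to 3.62) and 0.299 (0.0303 to 1.57). These intervals leave room for differences of up to several fold for SLC6A11, and their overlap with 1 does not show equal levels. GAD2 gave 1.19 (0.796 to 1.78) and 0.978 (0.569 to 1.68), whereas SLC32A1 gave 1.66 (1.02 to 2.74) in NHP1 and 0.568 (0.307 to 1.02) in NHP2, in opposite directions. A share of ganglion markers is not a layer, since a spot spans several layers, and the part of the mix of cells in these differences was not tested.

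**Figure D4:**
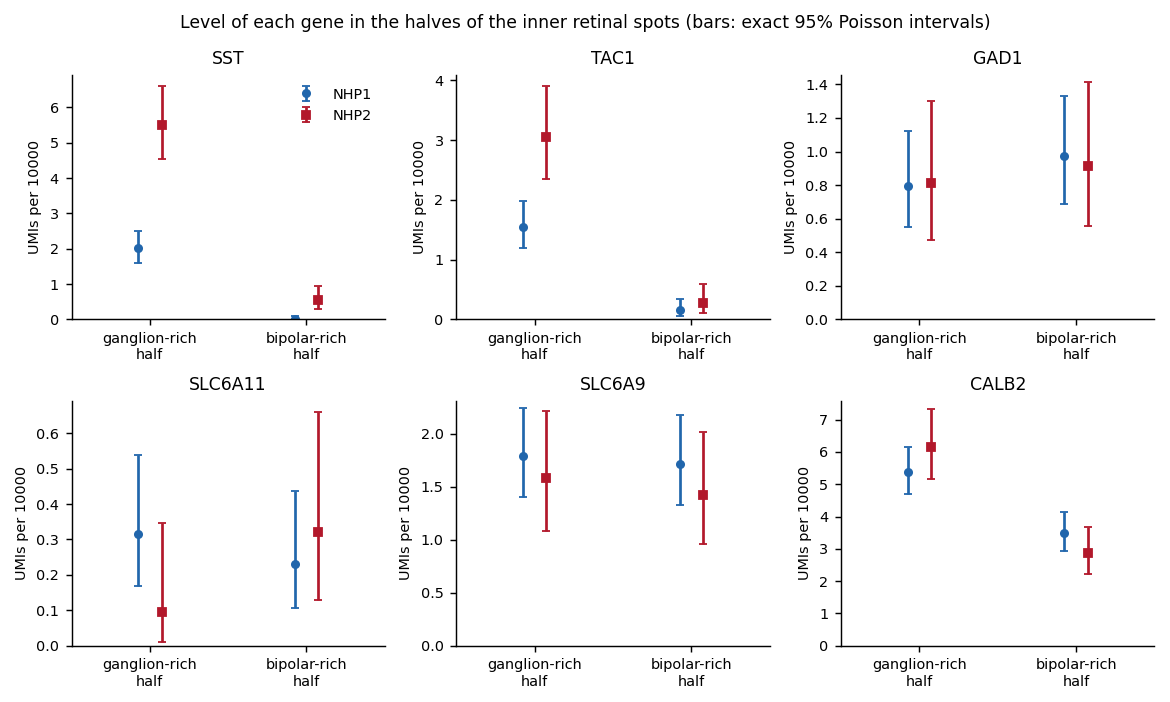
Level of each gene in UMIs per 10000 (y axis) in the ganglion-rich and bipolar-rich sets of the inner retinal spots (x axis), with circles for NHP1, squares for NHP2 and bars for exact 95% Poisson intervals. TAC1 and CALB2 were higher in the ganglion-rich set of both sections, while the intervals of GAD1 and SLC6A9 overlapped. In NHP2, 1 spot held 71.4% of the TAC1 UMIs. The sets were cut at the median ganglion marker share of each section, 64.1% in NHP1 and 78.4% in NHP2.

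The share of spots with a UMI followed depth. In NHP1 it was 14.9% for TAC1, 32.1% for GAD1, 12.7% for SLC6A11, 52.2% for SLC6A9 and 76.9% for CALB2, and in NHP2 23.5% for TAC1, 20.6% for SLC6A11, 79.4% for CALB2 and 17 of 34 spots each for GAD1 and SLC6A9. After thinning to 1000 UMIs per spot, with 2 shallower spots of NHP1 left out, the shares fell to 4.55%, 6.82%, 2.27%, 20.5% and 37.9% in NHP1 and to 8.82%, 5.88%, 2.94%, 14.7% and 35.3% in NHP2. SST was the exception in NHP1, at 2.24% before and 2.27% after thinning. Photoreceptor spots, with median depths of 3279 and 3945 UMIs, served as a background thinned in the same way. There SLC6A9 was present in 12.2% of spots in NHP1 and 5.71% in NHP2, and CALB2 in 10.98% and 8.57%. SST, TAC1, GAD1 and SLC6A11 were in 0 of 82 photoreceptor spots in NHP1, a share of up to 4.40% by the exact binomial interval, and in NHP2 SST was in 1 of 35 and the others in 0.

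Intervals of the ratio between the animals included 1 for GAD1, SLC6A11, SLC6A9 and CALB2. The share of all genes for which they did was not counted. The ratio of NHP2 over NHP1 was 0.981 (0.640 to 1.48) for GAD1, 0.770 (0.312 to 1.74) for SLC6A11, 0.854 (0.625 to 1.16) for SLC6A9 and 1.003 (0.838 to 1.20) for CALB2. The median ratio was 1.02, with quartiles of 0.851 and 1.21, over the 4720 genes with at least 50 inner retinal UMIs summed over both sections. Counted per spot, where NHP2 was deeper, the ratios were 2.05 for GAD1, 1.79 for SLC6A9 and 2.102 for CALB2. SST was 2.88-fold (2.17 to 3.84) and TAC1 1.88-fold (1.33 to 2.66) higher in NHP2. Leaving out the fullest spot of each section took TAC1 to 0.984 (0.548 to 1.71) and SST to 7.35 (2.34 to 30.4), the latter from 4 and 15 UMIs. Marker lists of the other inner retinal cells had summed levels of 33.98 and 36.9 UMIs per 10000 for ganglion, 14.5 and 11.6 for bipolar 97.8 and 86.0 for Müller glia and 0.310 (0.201 to 0.458) and 0.0935 (0.0255 to 0.239) for horizontal cell markers in NHP1 and NHP2, the last from 25 and 4 UMIs.

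Within NHP1 the inner retina lay in separate pieces of tissue. The piece with 77 inner retinal spots held the fullest SST and TAC1 spots, 79 of 83 SST UMIs and 65 of 70 TAC1 UMIs. Another, with 41 inner retinal spots, had 4 UMIs of SST and 3 of TAC1, at 0.206 per 10000 (0.0425 to 0.602) against 1.05 (0.811 to 1.34) for TAC1 in the first. Of the 65 TAC1 UMIs of the first, 27 lay in its fullest spot. GAD1 was at 0.962 (0.526 to 1.61) and 0.889 (0.669 to 1.16) in these pieces, and CALB2 at 4.33 (3.33 to 5.54) and 4.52 (4.01 to 5.09). SLC6A9 was lower in the piece with 41 spots, at 1.099 (0.628 to 1.78) against 1.89 (1.56 to 2.27), with overlapping intervals. A smaller piece, with 15 inner retinal spots, had 0 UMIs of SST and 2 of TAC1. TAC1 was at 0.502 there (0.0607 to 1.81), an interval that overlaps those of both larger pieces.

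Related genes were read from lists of peptides, transmitter enzymes and transporters, calcium buffers, amacrine transcription factors and peptide receptors. Beside the 6 genes these held 44 genes with a feature in the reference, of which 16 had 0 UMIs in the tissue of NHP1 and 17 in that of NHP2. The share of all features at 0 was not counted, so these numbers are not set against it. At least 20 UMIs were reached by 11 of the 44 in NHP1, of which 10 were at least 2-fold higher in the inner retina. In NHP2 10 of the 44 reached it, of which 9 were. Of all genes, 8.87% and 13.7% were. CALB1 was the exception in both. TCF4, with 19 and 16 tissue UMIs, fell under the minimum, and its folds were 0.158 (0.0295 to 0.553) and 0 (up to 0.229). In NHP2 GAD2, SLC32A1 and TFAP2B, among others, passed the minimum only through the inner retina, with 4, 3 and 2 UMIs outside it. In NHP1 NPY, SLC17A8 and TFAP2B did so, with 8, 6 and 18 UMIs outside it. The lists were chosen with earlier results of these data known, so these counts are a description. The peptide gene CARTPT, whose product occurs in amacrine and ganglion cells, had 435 and 496 inner retinal UMIs, at 5.402 and 11.6 UMIs per 10000 and folds of 4.27 and 11.8. NPY had folds of 2.11 (0.890 to 5.54) and 7.59 (3.01 to 24.6). TFAP2B had folds of 3.94 and 25.6, TFAP2A 2.56 and 6.10, and PAX6 4.13 and 4.81.

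**Figure D5:**
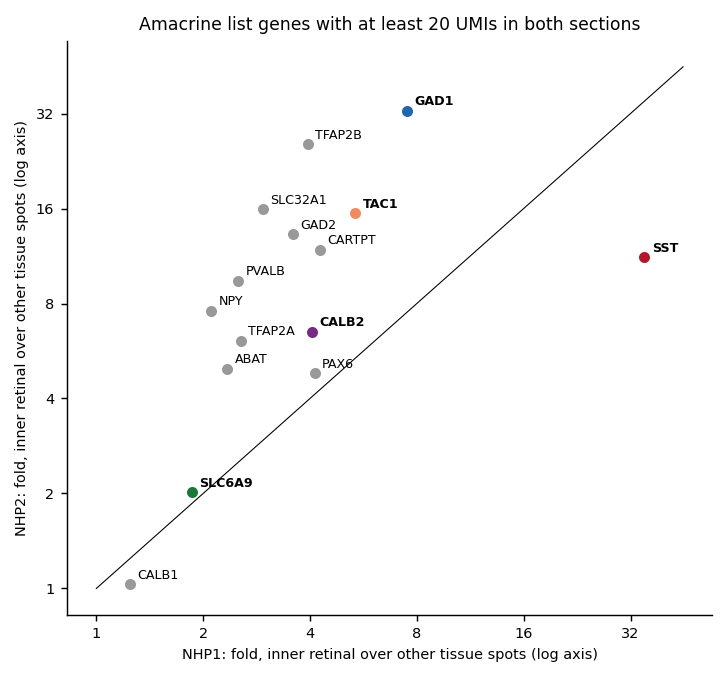
Fold of inner retinal over other tissue spots in NHP1 (x axis) and NHP2 (y axis), both on log axes, for the 15 genes of the amacrine lists with at least 20 UMIs in both sections, with 1 point per gene and a line at equal folds. SST, at 35.0 and 11.2, and CALB1, at 1.24 and 1.03, lay below the line and the others above it.

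Several genes of other amacrine types were at or near 0. CHAT and SLC18A3, which mark cholinergic amacrine cells, and DDC and SLC18A2, which act in dopaminergic cells, had 0 UMIs in the tissue of both sections, as did NOS1, CCK, CRH and ADCYAP1. TH, the enzyme that limits dopamine synthesis, had 5 inner retinal UMIs in NHP1 and 1 in NHP2, and VIP had 3 and 7. SLC5A7, the choline transporter, also had 5 and 1. SLC17A8, the vesicular transporter of glutamatergic amacrine cells, had 17 and 13. Receptors of the 2 peptides were also sparse, and none of the 8 reached 20 UMIs. Among them TACR3, which prefers another tachykinin, had 14 UMIs in the inner retina of NHP1 and 1 in NHP2, TACR1, the substance P receptor, had 3 and 0, and SSTR2 had 0 and 2. With 0 UMIs in the inner retina, a level there of up to 0.0458 per 10000 (NHP1) or 0.0862 (NHP2) remains possible by the exact interval.

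Genes with the most similar pattern were sought by the lower of the 2 sections' Pearson correlations over inner retinal spots, 134 in NHP1 and 34 in NHP2, which share each section's depth. CALB2 was closest to PTPN11 (r = 0.338 and 0.449), PREPL (0.307 and 0.514) and NDRG4 (0.305 and 0.481), out of 3391 genes. For TAC1 these were VSNL1 (0.317 and 0.444), TMSB10 (0.291 and 0.305) and YWHAH (0.273 and 0.271). SLC6A11 was closest to GSTM3, UBE2V2 and NSG2 (lower r of 0.365, 0.339 and 0.335), GAD1 to ZNF581, PSMC5 and ATF6 (0.292, 0.291 and 0.267), SLC6A9 to KIDINS220, RNF187 and HMGN3 (0.298, 0.293 and 0.291) and SST to CREB3, HRAS and GOLPH3 (0.218, 0.204 and 0.187). All were weak, as sparse counts allow, and those of SST rested on 1 spot in each section. SLC6A11 had only 22 and 9 inner retinal UMIs, with no more than 2 in any spot. For TAC1, 1 spot held 71.4% of the inner retinal UMIs in NHP2.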

How the data were processed

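Sections of 10 μm on Visium slides (3′ capture of polyadenylated RNA) were used. The labels call the tissue fresh frozen but also mention fixation. The authors made the deposited counts, raw UMI counts per gene and spot, with Space Ranger 2.1.0 (version per the file headers) against Mmul_10 with added transgenes, and sections were not pooled. Tissue spots were those inside the authors' mask. Summed over them, counts equalled the deposited sums for all 13804 genes of NHP1 and 12542 of NHP2. The sections shared 67 tissue barcodes, which mark slide positions.

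Levels are UMIs per 10000 with exact Poisson intervals, ratios have conditional binomial intervals and shares Clopper-Pearson intervals. Where a fold would divide by 0, 3 UMIs were used. UMIs are molecules, so intervals and floors cover counting error only. Spots were clustered per section (scanpy 1.11.5, leidenalg 0.10.2, resolution 1, 2000 variable genes, 20 components) without the 6 genes and the amacrine lists. A region took the class with the most markers at 1.5-fold or more, at least 3, unless another class had more of its top 10 genes or its median depth was low with none of its markers there. The minimum of 50 UMIs for leading genes was set after seeing the regions. Named genes were the 6 genes, the list genes, the 3 leading genes of each region and the 3 most similar genes per member, among those with at least 50 UMIs. The calculations of folds and concentration were run on simulated independent counts with planted changes. This checks the calculation only and does not show that the intervals hold for SST and TAC1. The genes and lists were chosen with earlier results of these data known. Alternatives are given in the closing section. Image scale factors were not used. Of the genes in the lists and markers, 2 are not reported here.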

Additional observations from a re-analysis of the deposited data

Results flagged for a closer look

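UMIs of the genes were counted in spots outside the tissue mask, which belong to none of the comparisons between regions, and 9 such sums were above the limit of 3 UMIs. In NHP1 they were 6 for SST, 25 for TAC1, 28 for GAD1, 6 for SLC6A11, 51 for SLC6A9 and 134 for CALB2, over 523115 UMIs. In NHP2 they were 26 for TAC1, 8 for SLC6A9 and 22 for CALB2, over 76907 UMIs. Spots that adjoin tissue held 58.6% of all UMIs off tissue in NHP1 and 64.7% in NHP2, and 20 of the 25 TAC1 UMIs in NHP1 and 24 of 26 in NHP2. Per 10000 UMIs, TAC1 was at 4.82 (3.09 to 7.17) in the adjoining spots of NHP2, against 1.64 (1.27 to 2.07) in its inner retina. In NHP1 it was at 0.652 (0.398 to 1.01) there, against 0.869 (0.678 to 1.098).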

How the results depend on the processing

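No paired analysis was possible because each animal gave 1 section, and for the same reason no replicate could be left out. Of 315 recomputed values, 230 stayed within the interval of the main value (for counts of genes, within 1.5 times it), 82 moved outside it and 3 reversed. Clustering with the 6 genes and the amacrine lists kept in, a minimum of 200 UMIs per spot, and leaving out the region of NHP1 that rests on 3 markers (chosen after seeing the data) moved none. The summed level of the 6 genes in the inner retina, 9.28 UMIs per 10000 in NHP1 and 11.7 in NHP2, was 12.53 and 15.95 where spots were classed by marker score, which shared 60 and 21 spots with the main inner retina. It was 8.21 and 9.05 without the spot fullest in the 6 genes, and 8.73 in NHP2 at Leiden resolution 0.5. Scaled without mitochondrial and the 50 most abundant genes, which shifts every level of a section by 1 factor, it was 11.4 and 13.8, and no fold or ratio left its interval. The count of genes at least 2-fold higher, 5 in NHP1 and 6 in NHP2 with SLC6A11 included, was 4 in each without the fullest spot of each gene. The fold of TAC1 in NHP2 reversed to 0.484 over spots off tissue, that of SLC6A9 in NHP2 to 0.883 over spots more than 3 spacings off tissue, and the ratio of SST between ganglion-rich and bipolar-rich spots of NHP2 to 0.205 between the ends of that share, where the fullest spot was in neither. The causes of the first 2 were not tested. SLC6A11 in both sections and GAD1 in NHP2 had 0 UMIs in some off-tissue sets, and SLC6A11 in NHP2 at the ganglion-rich end, so no fold could be given.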
